A study of Mus musculus with 18 samples.

Results

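The goblet cell genes described here are 10 protein-coding genes, Muc2, Fcgbp, Clca1, Zg16, Tff3, Agr2, Spink4, Klk1, Retnlb and Bcas1. They were taken by gene symbol from 18 count tables, each of which listed 47729 genes. All 10 were found. The tables hold RNA sequencing counts of epithelial cells sorted by flow cytometry from the ileum, the last stretch of the small intestine, of female mice. There were 6 libraries from pregnant, 6 from pseudopregnant and 6 from virgin mice, where pseudopregnancy is the hormonal state that follows a mating without conception. All animals were female, and their chow is given as RM3 during breeding and RM1 otherwise. Whether the mated and virgin groups were on the same chow when sampled cannot be told from this. The labels give no strain, genotype, age, day of pregnancy, way of inducing pseudopregnancy, sorting markers or batch. They also do not say whether each library came from a separate animal, so the p-values below measure only the spread between these libraries, which may be technical.

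Goblet cells are the mucus-secreting cells of the intestinal epithelium. They fold and store the gel-forming mucin MUC2 with a set of accompanying proteins and release it as the layer that keeps bacteria away from the epithelium. The cell fate depends on the transcription factor ATOH1, and SPDEF drives later maturation. In the mouse, interleukin 4 and interleukin 13 act on goblet cells and induce some of their products, among them the resistin-like protein encoded by Retnlb.

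Promoters of members that varied together across the libraries are printed here so that they can be compared beside those values: Muc2 with Fcgbp, and Agr2 with Klk1. Each line gives the 250 bases before the transcription start in RefSeq, on build GRCm38.p6, all on the plus strand, at chr7:141690090-141690339 for Muc2, chr7:28070986-28071235 for Fcgbp, chr12:35992675-35992924 for Agr2 and chr7:44225110-44225359 for Klk1. RefSeq entries were at hand for these 4 of the 10 members. Capitals mark matches, on either strand, to TATAA, to the E-box CAGCTG, to the GATA-type motif AGATAA or to CCACCC, a box bound by KLF factors. A further motif, TGTTTAC, was searched and matched none of the 4.
Muc2: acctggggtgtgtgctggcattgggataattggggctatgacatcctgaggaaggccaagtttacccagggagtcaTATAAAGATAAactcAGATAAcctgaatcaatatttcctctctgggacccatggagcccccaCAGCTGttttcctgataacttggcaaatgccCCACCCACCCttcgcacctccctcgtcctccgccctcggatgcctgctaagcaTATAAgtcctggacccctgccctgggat
Fcgbp: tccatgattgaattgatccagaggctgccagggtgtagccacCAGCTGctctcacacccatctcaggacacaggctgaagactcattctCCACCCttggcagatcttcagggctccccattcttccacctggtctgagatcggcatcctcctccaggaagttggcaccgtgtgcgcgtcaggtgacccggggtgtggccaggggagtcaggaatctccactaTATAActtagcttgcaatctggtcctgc
Agr2: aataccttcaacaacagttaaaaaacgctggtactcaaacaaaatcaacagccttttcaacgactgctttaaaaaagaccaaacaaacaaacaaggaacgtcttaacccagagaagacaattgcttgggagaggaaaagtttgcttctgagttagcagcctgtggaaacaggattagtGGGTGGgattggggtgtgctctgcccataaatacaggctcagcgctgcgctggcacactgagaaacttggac
Klk1: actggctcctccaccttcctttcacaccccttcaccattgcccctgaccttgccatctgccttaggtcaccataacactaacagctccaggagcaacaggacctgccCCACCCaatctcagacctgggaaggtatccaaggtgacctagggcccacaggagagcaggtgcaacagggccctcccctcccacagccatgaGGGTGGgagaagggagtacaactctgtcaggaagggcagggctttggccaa

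The letters TATAA began 28 bases before the start in both Muc2 and Fcgbp, and a further copy in Muc2 began at 174 bases. Agr2 and Klk1 held no TATAA in this window, against 22.8% of the 32851 RefSeq promoter windows of the same length that held it. CAGCTG stood 112 bases before the start in Muc2 and 208 bases before it in Fcgbp, and 13% of all windows held it. AGATAA was present only in Muc2 among the 4, at 169 and 159 bases, the first directly after a TATAA match. It was found in 9.99% of all windows. CCACCC was in all 4 windows, as it was in 28.1% of all windows, and the Muc2 matches at 81 and 77 bases overlap each other. TGTTTAC was in 3.17% of all windows. These motifs were chosen after the sequences had been seen, and a match is a description of the letters only.

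Library totals lay between 24946836 and 37285510 counts in the pregnant group, between 28511289 and 32535646 in the pseudopregnant group and between 28110900 and 32549543 in the virgin group. The 10 genes together took 0.454% to 0.844% of the counts of a pregnant library, 0.616% to 0.979% of a pseudopregnant library and 0.566% to 1.53% of a virgin library. Epcam, an epithelial surface marker, lay between 1638 and 3589 in counts-per-million units (CPM, on library sizes scaled by the TMM method), and Ptprc, the leukocyte marker CD45, between 0.198 and 0.638 CPM. No 2 libraries of a group agreed within sampling noise, with a chi-square per degree of freedom of at least 32.5.

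Per kilobase of annotated exon, Tff3 had the highest level, with 2100 ± 1076 CPM per kilobase over the 18 libraries (SD). TFF3 is a small trefoil peptide of the mucus layer that promotes epithelial repair. Zg16, which encodes a lectin that binds the cell wall of Gram-positive bacteria, followed at 1375 ± 706 CPM per kilobase, below Tff3 in 18 of 18 libraries. Spink4, a Kazal-type peptidase inhibitor, came next at 876 ± 499 CPM per kilobase, and it was below Zg16 in 15 of 18 libraries. Fcgbp was at 278 ± 94.8 and Agr2 at 256 ± 81.1 CPM per kilobase. This pair was not separated, with Fcgbp above Agr2 in 10 of 18 libraries. Clca1 stood at 154 ± 57.0 CPM per kilobase and Muc2 at 80.2 ± 31.2 CPM per kilobase. Clca1 was the higher in 18 of 18 libraries. Klk1, at 60.7 ± 23.8 CPM per kilobase, was below Muc2 in 11 of 18 libraries only. Bcas1 and Retnlb closed the order in all 18 libraries, at 6.25 ± 1.90 and 0.437 ± 0.914 CPM per kilobase. The place of Muc2 rests on its gene model: the annotation holds 8 transcripts, 5 of them marked incomplete, and the longest spans 15.7% of the gene.

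The genes of the mucus itself are taken first. Muc2 encodes the gel-forming mucin, on chromosome 7 from 141690340 to 141754693 on the plus strand of GRCm38. Its lowest, median and highest levels were 337, 423 and 734 CPM in pregnant libraries, 357, 693 and 834 CPM in pseudopregnant libraries and 338, 445 and 1132 CPM in virgin libraries. The 3 ranges overlapped, and virgin replicate 4 was the highest of all. The log2 fold change was -0.17 (SE 0.29, adjusted p = 0.92) for pregnant against virgin, 0.21 (SE 0.29, adjusted p = 0.72) for pseudopregnant against virgin and -0.39 (SE 0.29, adjusted p = 0.92) for pregnant against pseudopregnant. None passed edgeR's quasi-likelihood test at an adjusted p of 0.05. Leaving out 1 library at a time moved the first to between -0.32 (without pregnant replicate 6) and 0.15 (without virgin replicate 4) and the second to between 0.10 (without virgin replicate 1) and 0.54 (without virgin replicate 4). In bulk RNA of this kind, fewer cells of a type and less RNA per cell cannot be told apart.

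Fcgbp encodes a large protein, the IgG Fc-binding protein, that is linked into the mucin network. It lies on chromosome 7 from 28071236 to 28120862 on the plus strand. It had the most counts of the 10 genes, with 1872, 2302 and 3846 CPM as lowest, median and highest in pregnant libraries, 2054, 3470 and 3564 CPM in pseudopregnant libraries and 1976, 2251 and 5682 CPM in virgin libraries. Of the 6 pseudopregnant libraries 5 lay close together, between 3328 and 3564 CPM, and replicate 6 stood low, whereas among virgin libraries replicate 4 stood high. The log2 fold changes were -0.10 (SE 0.27), 0.18 (SE 0.27) and -0.28 (SE 0.27) for pregnant against virgin, pseudopregnant against virgin and pregnant against pseudopregnant, with adjusted p of 0.95, 0.74 and 0.92. Without virgin replicate 4 the first was 0.22 and the second 0.50, and without pregnant replicate 1 the third was -0.18.

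Clca1 encodes a secreted metalloprotease that processes mucus, on chromosome 3 from 145003817 to 145032776 on the minus strand. Pregnant libraries had 348, 454 and 862 CPM as lowest, median and highest, pseudopregnant libraries 388, 611 and 806 CPM, and virgin libraries 389, 528 and 1130 CPM. The ranges again lay over each other, with virgin replicate 4 on top. Its log2 fold changes were -0.29 (SE 0.28), -0.08 (SE 0.28) and -0.20 (SE 0.28) in the same order of comparisons, with adjusted p between 0.89 and 0.92. Without virgin replicate 4 the first was -0.04 and the second 0.16, whereas without virgin replicate 1 the second was -0.21. The third lay between -0.41 without pregnant replicate 6 and -0.10 without pseudopregnant replicate 5.

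Zg16 lies on chromosome 7 from 127050156 to 127087328 on the minus strand. It had the most negative fold change of the 9 tested members for pregnant against virgin. Its levels were 908, 1283 and 1777 CPM in pregnant libraries, 928, 1365 and 3219 CPM in pseudopregnant libraries and 1064, 1720 and 4161 CPM in virgin libraries, as lowest, median and highest. The lowest values were alike, and the groups differed in their upper ends, with pseudopregnant replicate 1 and virgin replicates 2 and 4 high. For pregnant against virgin the log2 fold change was -0.68 (SE 0.34, 95% interval -1.40 to 0.03, unadjusted p = 0.059, adjusted p = 0.89). It was -0.38 without virgin replicate 4. Pseudopregnant against virgin gave -0.34 (SE 0.34) and pregnant against pseudopregnant -0.35 (SE 0.34), neither past the test. Pseudopregnant against virgin was -0.04 without virgin replicate 4 and -0.63 without pseudopregnant replicate 1, and pregnant against pseudopregnant was -0.05 without pseudopregnant replicate 1.

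Tff3, on chromosome 17 from 31125306 to 31129646 on the minus strand, had 666, 834 and 1605 CPM as lowest, median and highest in pregnant libraries, 472, 698 and 2037 CPM in pseudopregnant libraries and 553, 973 and 2089 CPM in virgin libraries. Replicate 1 was the highest of the pregnant and of the pseudopregnant libraries, and replicates 2 and 4 were the highest virgin libraries. Its log2 fold change was -0.40 (SE 0.37) for pregnant against virgin and -0.41 (SE 0.37) for pseudopregnant against virgin. Pregnant against pseudopregnant gave 0.01 (SE 0.37), with a 95% interval from -0.76 to 0.78. Without 1 library, pregnant against virgin ran from -0.62 (without pregnant replicate 1) to -0.18 (without virgin replicate 2), and pseudopregnant against virgin from -0.81 (without pseudopregnant replicate 1) to -0.21 (without virgin replicate 2). Pregnant against pseudopregnant was -0.20 without pregnant replicate 1 and 0.41 without pseudopregnant replicate 1.

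**Figure D1:**
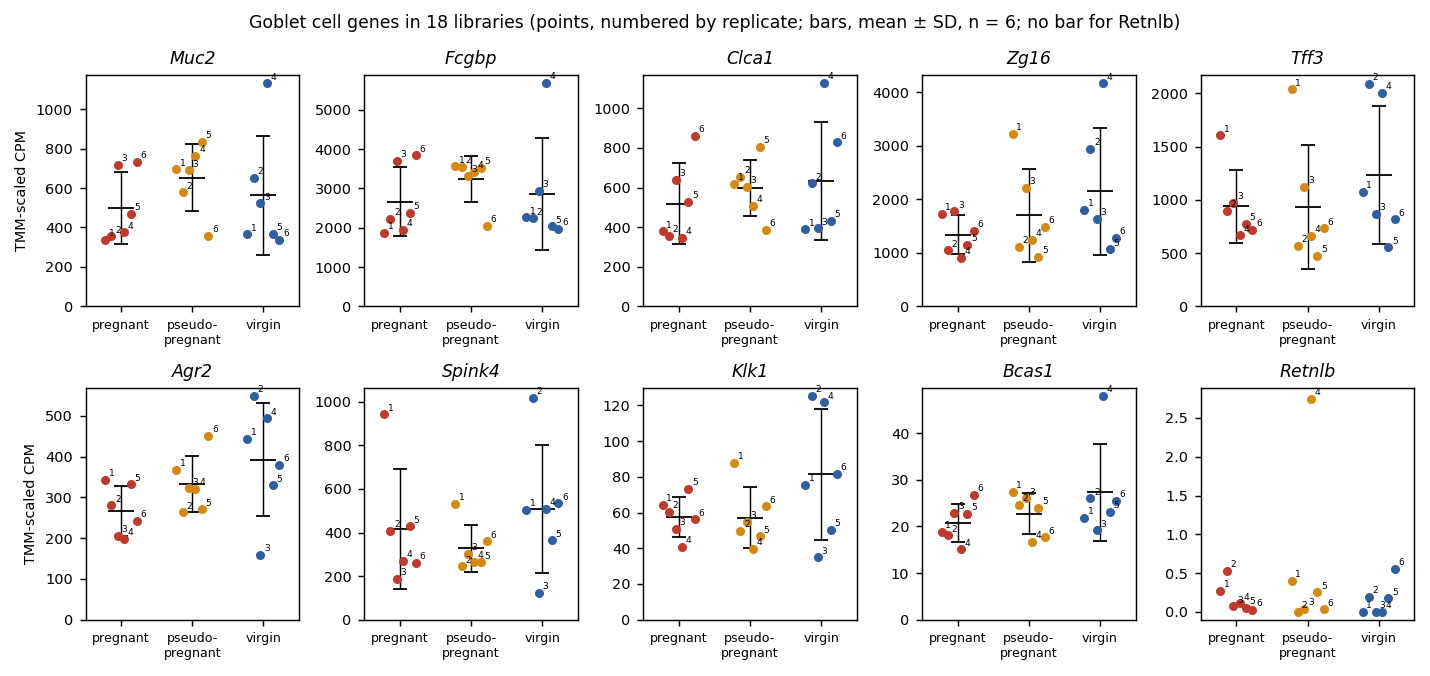
Level of each goblet cell gene in each library. The y axes show CPM on TMM-scaled library sizes, points are libraries numbered by replicate, and bars are the mean and SD of 6 libraries (none for Retnlb). In every panel the 3 groups overlap, and virgin replicate 4 or virgin replicate 2 is the highest library for the 9 genes other than Retnlb.

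Agr2 encodes a disulfide isomerase of the endoplasmic reticulum that mucin production requires in the mouse, on chromosome 12 from 35992907 to 36004087 on the plus strand. Pregnant libraries had 199, 262 and 342 CPM as lowest, median and highest, pseudopregnant libraries 264, 322 and 452 CPM, and virgin libraries 159, 412 and 549 CPM. All 6 pregnant libraries were below the virgin median, yet virgin replicate 3 was below all of them. For pregnant against virgin the log2 fold change was -0.56 (SE 0.23, 95% interval -1.04 to -0.07), with an unadjusted p of 0.026 and an adjusted p of 0.89. Agr2 thus had the smallest p of the members and did not pass once all 14675 tested genes were accounted for. Agr2 had a log2 fold change of -0.24 (SE 0.23) for pseudopregnant against virgin and -0.32 (SE 0.23) for pregnant against pseudopregnant. The value for pseudopregnant against virgin was -0.13 without virgin replicate 2 and -0.40 without virgin replicate 3, and that for pregnant against pseudopregnant was -0.21 without pseudopregnant replicate 6.

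Spink4, on chromosome 4 from 40920052 to 40931395 on the plus strand, was the most variable of the 9 tested members among pregnant and among virgin libraries by coefficient of variation. Its lowest, median and highest levels were 188, 339 and 943 CPM in pregnant libraries, 245, 284 and 531 CPM in pseudopregnant libraries and 124, 506 and 1020 CPM in virgin libraries. Pregnant replicate 1 and virgin replicate 2 stood high, and virgin replicate 3 stood low. The log2 fold change was -0.29 (SE 0.40) for pregnant against virgin, -0.64 (SE 0.40, adjusted p = 0.52) for pseudopregnant against virgin and 0.35 (SE 0.40) for pregnant against pseudopregnant. The first of these was 0.04 without virgin replicate 2 and -0.70 without pregnant replicate 1. Without virgin replicate 2 the second was -0.33, and the third was -0.06 without pregnant replicate 1 and 0.55 without pseudopregnant replicate 1.

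Klk1 encodes tissue kallikrein, a secreted serine protease, on chromosome 7 from 44225360 to 44229618 on the plus strand. The lowest, median and highest levels were 40.9, 58.3 and 73.2 CPM in pregnant libraries, 39.7, 52.3 and 87.9 CPM in pseudopregnant libraries and 34.8, 78.5 and 125 CPM in virgin libraries. All 6 pregnant and 5 of 6 pseudopregnant libraries were below the virgin median, with virgin replicate 3 again the lowest of the 18. Klk1 had a log2 fold change of -0.50 (SE 0.26, unadjusted p = 0.069, adjusted p = 0.89) for pregnant against virgin and -0.51 (SE 0.26, unadjusted p = 0.062, adjusted p = 0.52) for pseudopregnant against virgin. Pregnant and pseudopregnant libraries differed by 0.02 (SE 0.26, 95% interval -0.53 to 0.56). Klk1 belongs to a family of near copies, so some of its reads could have been assigned to its paralogs or the reverse. The best covered of the listed paralogs, Klk1b5, averaged 2.34 CPM over the 18 libraries.

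Bcas1, a goblet cell marker also known from myelinating cells, lies on chromosome 2 from 170346991 to 170427845 on the minus strand. It had 15.1, 20.8 and 26.7 CPM as lowest, median and highest in pregnant libraries, 16.7, 24.4 and 27.4 CPM in pseudopregnant libraries and 19.2, 24.3 and 48.1 CPM in virgin libraries. Virgin replicate 4 stood apart from the other 17. The log2 fold change of pregnant against virgin was -0.40 (SE 0.20, unadjusted p = 0.063, adjusted p = 0.89) and was -0.16 without virgin replicate 4. Pseudopregnant against virgin gave -0.26 (SE 0.20) and pregnant against pseudopregnant -0.13 (SE 0.20). Without virgin replicate 4 pseudopregnant against virgin was -0.03, and pregnant against pseudopregnant lay between -0.22 without pregnant replicate 6 and -0.06 without pregnant replicate 4. The antisense genes Bcas1os1 and Bcas1os2, which share 440 and 34 exon bases with Bcas1, had 5 and 3 counts in all libraries together, against 13252 for Bcas1.

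Retnlb encodes a secreted bactericidal protein that type 2 cytokines induce in the mouse, on chromosome 16 from 48816856 to 48818892 on the plus strand. It was close to the limit of detection and below the filter on low counts, so it was not tested. Pregnant libraries had 1 to 15 counts (30 in all), pseudopregnant libraries 0 to 95 (117 in all) and virgin libraries 0 to 19 (30 in all). A single library, pseudopregnant replicate 4, held 95 of the 117 pseudopregnant counts. In the 4 libraries with none, a count of 0 allows up to 3 counts, or 0.0805 to 0.12 CPM across the 18 library sizes. Such limits cover counting error only. The cytokine genes Il4 and Il13, the decoy receptor Il13ra2 and the type 2 products Retnla and Chil3 were at 0 in all 18 libraries, and Il25, a tuft cell cytokine, had 0 to 6 counts a library. The libraries are of sorted epithelial cells, with Ptprc at 0.198 to 0.638 CPM. These counts therefore do not describe other cells of the tissue.

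In pregnant against virgin libraries, 0 of the 9 tested members had an adjusted p under 0.05, the share of all 14675 tested genes being 0%. At an unadjusted p under 0.05 there was 1 of 9 (Agr2), against 3.68% of all tested genes. That share is 540 genes, and it moved to 223 without pregnant replicate 4 and to 1953 without virgin replicate 3. With DESeq2 there were 0 at an adjusted p (0.00729% of all genes) and 2, Agr2 and Zg16, at an unadjusted p (2.86% of all genes). DESeq2 was run without the filter on low counts. Its shares, here and below, are of 27451 genes and are not on the same set as those of edgeR, which are of 14675. All 9 log2 fold changes were below 0, as were 51.5% of those of all tested genes, and their median was -0.40 against -0.01 over all genes. The members vary together across libraries, so these 9 signs are not separate observations. Without virgin replicate 4, 7 of 9 were below 0 and the median was -0.20. Without pregnant replicate 1, all 9 were below 0 and the median was -0.53.

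In pseudopregnant against virgin libraries, 0 of 9 members passed at an adjusted p under 0.05 (0% of all genes), and 0 at an unadjusted p under 0.05, which 9.37% of all genes reached. That share is 1375 genes, and it moved to 540 without pseudopregnant replicate 5 and to 3390 without pseudopregnant replicate 1. DESeq2 gave 0 for both, with 0% of all genes adjusted and 6.27% unadjusted. The fold changes of 7 members were below 0, against 49.4% of all genes, and those of Muc2 and Fcgbp were above it. The median of all 9 was -0.26, against 0.00 over all genes. It was -0.04 without virgin replicate 4 and -0.40 without virgin replicate 3. This comparison shares its virgin libraries with that of pregnant mice, so the values of both are given side by side and were not correlated.

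In pregnant against pseudopregnant libraries, 0 of 9 members passed at an adjusted p under 0.05 (0% of all genes) and 0 at an unadjusted p under 0.05 (2.35% of all genes). That share is 345 genes, and it moved to 120 without pseudopregnant replicate 4 and to 1568 without pseudopregnant replicate 1. DESeq2 gave 0 for both, with 0% and 2.02% of all genes. Muc2, Fcgbp, Clca1, Zg16, Agr2 and Bcas1 had log2 fold changes below 0, which is 6 of 9 against 51.6% of all genes, with a median of -0.20 against -0.01 over all genes. The median was -0.06 without pseudopregnant replicate 1, -0.13 without pseudopregnant replicate 5 and -0.11 without pregnant replicate 2 or without pregnant replicate 4. In the other direction, it was -0.29 without pregnant replicate 6 and -0.25 without pregnant replicate 3. Without pregnant replicate 1 all 9 members were below 0, with a median of -0.18. Below 0 were 8 of 9 without pseudopregnant replicate 2, 4 or 5. No member separated any 2 groups completely. Such separation was seen for 0.0681% of all genes between pregnant and virgin, 0.0681% between pseudopregnant and virgin and 0.0273% between pregnant and pseudopregnant libraries. On simulated counts for pregnant against virgin libraries with 14675 genes, the same test called 98% of genes changed by 2 on the log2 scale. It called 67% of those changed by 1 and made 5 false calls. Each simulated gene was drawn independently, whereas genes of the real libraries can vary together. These shares therefore need not hold for the real libraries. For pregnant against virgin, the median SE was 0.28 over the 9 members and 0.20 over all tested genes. The share called at the spread of the members was not tested.

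**Figure D2:**
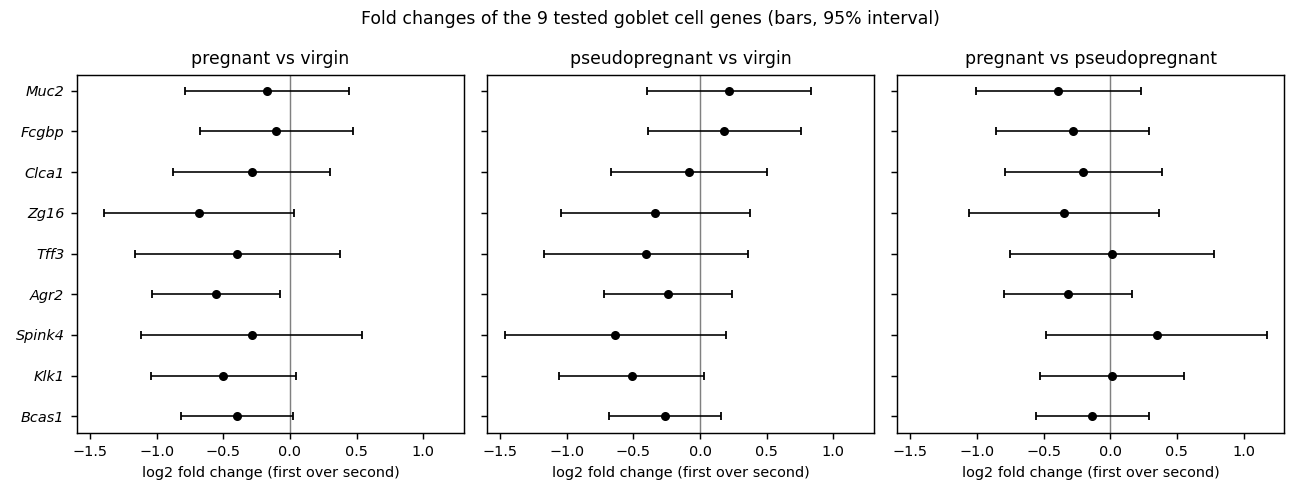
Log2 fold changes of the 9 tested goblet cell genes in the 3 comparisons. Points are edgeR estimates of the first named group over the second, and bars are 95% intervals. For pregnant against virgin all 9 points lie left of 0 and the interval of Agr2 (-1.04 to -0.07) alone excludes it. None passed the adjusted test.

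The members did not vary as 1 block. Over the 18 libraries and 36 pairs of members, Pearson's r of the log2 CPM had a median of 0.47 and ran from -0.37 to 0.92. These correlations are descriptions: the points share library and depth. The highest was that of Muc2 with Fcgbp (r = 0.92, Spearman's rho = 0.87, and r = 0.89 without the 2 libraries farthest from the Muc2 median). The promoters of both, printed above, have TATAA at 28 bases, and a part of these letters in the correlation was not tested. The next highest r was that of Tff3 and Zg16 (r = 0.91, rho = 0.85, and r = 0.86 without 2 libraries), then Clca1 and Bcas1 (r = 0.84, rho = 0.83, and r = 0.76). Agr2, Klk1 and Spink4 formed the remaining trio over 0.8, with r of 0.83 for Agr2 and Klk1, 0.81 for Agr2 and Spink4 and 0.80 for Klk1 and Spink4. Without the 2 farthest libraries these 3 were 0.73, 0.66 and 0.67. Muc2 and Fcgbp were unrelated or opposed to this trio: r was -0.37 for Fcgbp and Spink4 and -0.22 for Muc2 and Spink4. Within groups, from deviations from the group means, Muc2 and Fcgbp had r = 0.92, Tff3 and Zg16 r = 0.93 and Fcgbp and Spink4 r = -0.34.

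**Figure D3:**
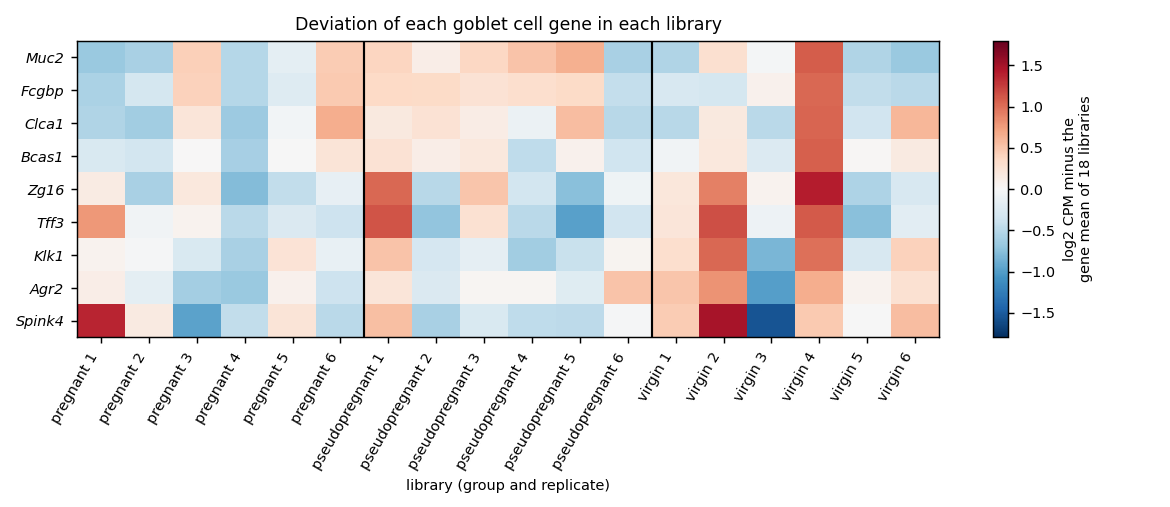
Deviation of each tested goblet cell gene in each library, as log2 CPM minus the mean of that gene over the 18 libraries (red above, blue below). Columns are libraries by group, and rows are ordered from Muc2 and Fcgbp at the top to Agr2 and Spink4 at the bottom. Virgin replicate 4 is above the mean for every gene, whereas virgin replicate 3 is blue for Agr2, Spink4 and Klk1 and near the mean for Muc2 and Fcgbp.

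**Figure D4:**
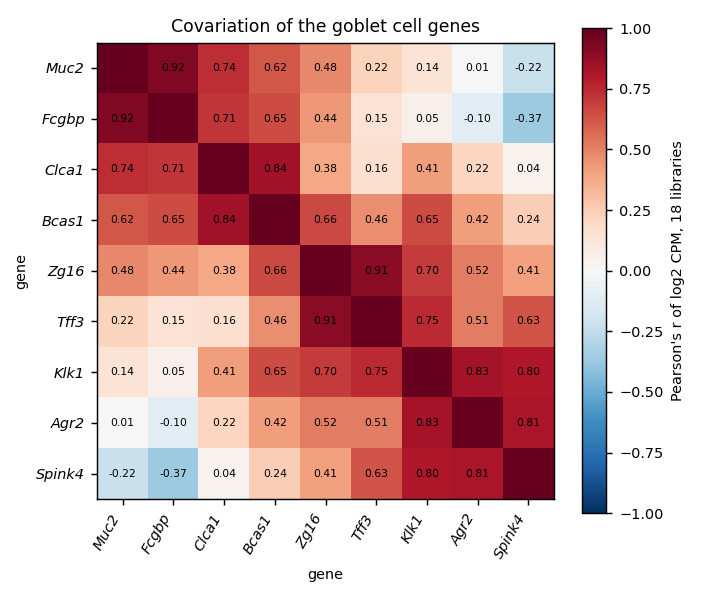
Pearson's r of log2 CPM over the 18 libraries between the goblet cell genes, in the row and column order of the map of deviations. The darkest red cells are Muc2 with Fcgbp (0.92) and Tff3 with Zg16 (0.91), and the bluest is Fcgbp with Spink4 (-0.37).

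The members were also set beside a measure of transcript length. For each library a length slope was computed, the slope of log2 CPM deviations on log2 exon length over 3382 genes with a mean of at least 50 CPM. A positive slope means that long transcripts were relatively high in that library. By this construction, long genes tend to go with the slope and short genes against it. Members with a mean of at least 50 CPM were themselves among the genes fitted. An order of the members by length is thus built into the measure and is not shown to be particular to goblet cell genes. The slope ran from -0.24 to 0.14 in pregnant libraries (median 0.02), from -0.16 to 0.24 in pseudopregnant libraries (median 0.10) and from -0.25 to 0.10 in virgin libraries (median -0.05). Spink4 and Tff3, with the shortest exon lengths of the tested members at 477 and 493 bases, had r of -0.85 and -0.77 with the slope. Klk1 (1077 bases), Zg16 (1257 bases) and Agr2 (1291 bases) had r of -0.73, -0.56 and -0.66. Bcas1 and Clca1, at 3775 and 3777 bases, had r of -0.13 and 0.22, and Muc2 and Fcgbp, at 7127 and 10497 bases, had r of 0.37 and 0.46. The length of Muc2 rests on a gene model with 5 of 8 transcripts marked incomplete. Without the 2 libraries of most extreme slope, r was -0.84 for Spink4, -0.66 for Tff3, 0.41 for Muc2 and 0.40 for Fcgbp. What sets the slope of a library was not tested.

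**Figure D5:**
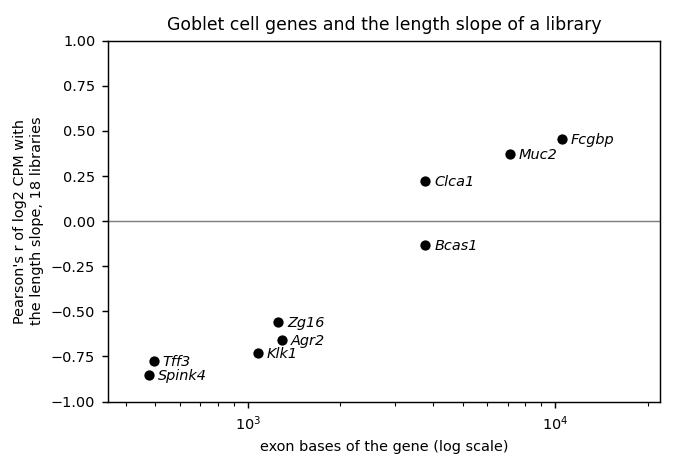
Correlation of each tested goblet cell gene with the length slope of a library, against the exon bases of the gene (log scale). Each point is a gene, and the y axis is Pearson's r over 18 libraries. The values run from -0.85 for Spink4, the shortest as annotated, to 0.46 for Fcgbp, the longest as annotated. A trend of this kind is built into the slope. The length of Muc2 rests on a gene model with 5 of 8 transcripts marked incomplete.

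With the length slope as a covariate, Spink4 for pseudopregnant against virgin was 0.14 (SE 0.25) in place of -0.64, Tff3 0.01 (SE 0.26) in place of -0.41 and Agr2 0.11 (SE 0.19) in place of -0.24. Klk1 was -0.16 in place of -0.51, Zg16 -0.08 in place of -0.34 and Clca1 -0.26 in place of -0.08, with Muc2 at 0.03 and Fcgbp at 0.00 in place of 0.21 and 0.18. In that fit 4 of 9 members were below 0 and their median was 0.00. For pregnant against virgin, 8 of 9 members stayed below 0 with a median of -0.30: Zg16 was -0.48 (SE 0.31), Bcas1 -0.40 (SE 0.21), Agr2 -0.36 (SE 0.17) and Spink4 0.02 (SE 0.22). Tff3 was -0.12 (SE 0.25) in place of -0.40 and Klk1 -0.26 (SE 0.20) in place of -0.50. The long members were more negative in this fit, with Clca1 at -0.40 (SE 0.29) in place of -0.29, Muc2 at -0.30 (SE 0.30) in place of -0.17 and Fcgbp at -0.22 (SE 0.26) in place of -0.10. Adjusted p was at least 0.866 for each of these 9. For pregnant against pseudopregnant all 9 were below 0, with Agr2 at -0.47 (SE 0.17, unadjusted p = 0.013, adjusted p = 0.91). The slope comes from these same libraries and its median differed by group, so shifts by gene length are in part built into this fit. The part of length in the fold changes was not tested.

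Markers of other epithelial cells moved with individual members. The Paneth cell list, 17 antimicrobial and granule genes of which none was at 0 in every library, summed to between 12252 and 52674 CPM in pregnant libraries, between 15636 and 30683 CPM in pseudopregnant libraries and between 5261 and 55079 CPM in virgin libraries. Spink4 had r = 0.88 with the mean Paneth score over the 18 libraries (rho = 0.84, and 0.83 without 2 libraries), Agr2 had 0.73 (0.50 without 2 libraries) and Klk1 0.61 (0.37 without 2 libraries), whereas Muc2 had -0.20 and Fcgbp -0.35. Virgin replicate 3, the lowest library for Spink4, Agr2 and Klk1, had the lowest Paneth score of the 18, at -2.05. With the enteroendocrine score, Zg16 had r = 0.83 (0.61 without 2 libraries), Tff3 0.74 (0.55), Klk1 0.62 (0.35) and Agr2 0.58 (0.52). With the absorptive enterocyte score, Agr2 had r = -0.74 (-0.63 without 2 libraries), Spink4 -0.73 (-0.60) and Klk1 -0.54 (-0.39). Muc2, Fcgbp and Clca1 had r of 0.74, 0.73 and 0.69 with the percent of counts from mitochondrial genes, which ran from 4.02% to 9.22%. The part of these cell types and of the mitochondrial share in the members' values was not tested.

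A member score, the mean deviation of the 9 tested members, had r = 0.93 with that of 18 tested genes from a list of 20 other goblet cell markers. Taken singly, members differed in this, with r of 0.24 for Fcgbp, 0.37 for Muc2 and, as the highest, 0.92 for Klk1. Without the 2 libraries farthest from the median of the marker score, r was 0.04, 0.06 and 0.84 in the same order. The member score had r = 0.79 with enteroendocrine markers, 0.66 with secretory transcription factors, 0.40 with Paneth markers, 0.01 with proliferation genes and -0.29 with absorptive enterocyte markers. The 10 genes outside the member list with the highest r with this score were Anxa3 (0.94), Capn9 (0.90), Pla2g10 (0.89), Rgs2 (0.87), Tpsg1 (0.86), Serpina1b (0.86), Sval1 (0.85), Hepacam2 (0.84), Mgll (0.83) and Hoxb6 (0.82). Capn9, a calpain protease, Pla2g10, a secreted phospholipase, and Tpsg1, a tryptase, were on the list of other goblet cell markers. Anxa3, which encodes an annexin, averaged 3.15 CPM, and its log2 fold change for pregnant against virgin was -0.54 (SE 0.25), not past the adjusted test.

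The other lists of the goblet cell programme held no gene with an adjusted p under 0.05 in any comparison. Of all tested genes, 3.68%, 9.37% and 2.35% had an unadjusted p under 0.05 for pregnant against virgin, pseudopregnant against virgin and pregnant against pseudopregnant. Below 0 were 51.5%, 49.4% and 51.6% of them, in the same order. Genes of a list can vary together across libraries, so such counts are not separate observations. Of the 18 tested other goblet cell markers, 17 had a log2 fold change below 0 for pregnant against virgin, with a median of -0.21, and none had an unadjusted p under 0.05. Among them Rep15 averaged 11.4 ± 3.02 CPM in pregnant libraries and 14.7 ± 4.85 CPM in virgin libraries, and Lrrc26, an auxiliary subunit of potassium channels, 20.2 ± 1.92 CPM in pregnant libraries and 24.2 ± 8.04 CPM in virgin libraries (SD, n = 6 each). For pseudopregnant against virgin, 14 of 18 were below 0 with a median of -0.19, and for pregnant against pseudopregnant 13 of 18 with a median of -0.06 and 1 at an unadjusted p under 0.05.

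Of 10 transcription factors of goblet and other secretory cells, 9 were below 0 for pregnant against virgin (median -0.25), none with an unadjusted p under 0.05. Atoh1, which commits cells to the secretory fate, averaged 13.3 ± 3.36 CPM in pregnant libraries and 16.6 ± 5.87 CPM in the virgin libraries (log2 fold change -0.32, SE 0.22). Spdef, which drives goblet cell maturation, averaged 14.6 ± 3.48 CPM in the pregnant and 19.2 ± 7.42 CPM in the virgin libraries (-0.40, SE 0.23), and all 6 pregnant libraries were below the virgin median. In pseudopregnant libraries Spdef averaged 14.8 ± 1.96 CPM (-0.38, SE 0.23), likewise with all 6 below that median. Foxa3, a forkhead factor, averaged 10.9 ± 3.51 CPM in the pregnant and 15.0 ± 5.44 CPM in the virgin libraries (-0.46, SE 0.24). For pseudopregnant against virgin 6 of the 10 were below 0 (median -0.03), and for pregnant against pseudopregnant all 10 (median -0.12).

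For pregnant against virgin, 16 of 23 genes of mucin glycosylation and sugar nucleotide supply were above 0, with a median of 0.05. An unadjusted p under 0.05 was reached by 2 of 23, both above 0, against 3.68% of all tested genes. Gcnt1, which makes the branched core of O-glycans, averaged 11.53 ± 8.91 CPM in pregnant libraries and 3.68 ± 1.97 CPM in virgin libraries. All 6 pregnant libraries were above the virgin median (log2 fold change 1.65, SE 0.52, unadjusted p = 0.0048, adjusted p = 0.89). B3gnt6, which builds the core type common on intestinal mucin, averaged 4.25 ± 1.73 CPM in the pregnant group and 2.73 ± 0.73 CPM in the virgin group (0.64, SE 0.24, unadjusted p = 0.016, adjusted p = 0.89). Above 0 were 17 of 23 for pseudopregnant against virgin (median 0.19, 3 at an unadjusted p under 0.05, against 9.37% of all tested genes). For pregnant against pseudopregnant 9 of 23 were above 0 (median -0.09). At an unadjusted p under 0.05 there were 1 higher and 2 lower, against 2.35% of all tested genes.

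Endoplasmic reticulum folding genes were below 0 in 15 of 20 cases for pregnant against virgin (median -0.15), in 13 of 20 for pseudopregnant against virgin (median -0.06) and in 14 of 20 for pregnant against pseudopregnant (median -0.04), with none at an unadjusted p under 0.05. The chaperone gene Hspa5 averaged 815 ± 94.2 CPM in pregnant libraries and 944 ± 180 CPM in the virgin libraries (log2 fold change -0.21, SE 0.16). Of 15 tested paralogs of the members, 7 were below 0 for pregnant against virgin. Agr3, the closest relative of Agr2, averaged 0.91 ± 0.24 CPM in the pregnant and 1.50 ± 0.60 CPM in the virgin libraries (-0.74, SE 0.27, unadjusted p = 0.014, adjusted p = 0.89). Of the same 15, 11 were above 0 for pseudopregnant against virgin (median 0.35). In that comparison 4 had an unadjusted p under 0.05, all above 0, against 9.37% of all tested genes (1080 above 0 and 295 below). Of these 4, the membrane mucin Muc13 had 3175 ± 1802 CPM in pseudopregnant and 1533 ± 553 CPM in the virgin libraries (1.05, SE 0.36). Muc4, also a membrane mucin, had 34.5 ± 27.6 CPM in pseudopregnant and 13.6 ± 6.19 CPM in virgin libraries (1.34, SE 0.49). The others were the Clca1 paralogs Clca3a2 (0.78, SE 0.26) and Clca3a1 (0.77, SE 0.30). Their adjusted p was 0.52. For pregnant against pseudopregnant 13 of 15 were below 0 (median -0.26), 3 of them at an unadjusted p under 0.05, against 2.35% of all tested genes.

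The list of type 2 response and other genes acting on goblet cells had 8 tested genes, namely the cytokines Il33 and Il18, the receptor chains Il4ra, Il13ra1 and Il22ra1, the sensor Nlrp6, the transcription factor Stat6 and the enzyme Arg1. They were above 0 in 6 of 8 cases for pregnant against virgin (median 0.23) and in 7 of 8 for pseudopregnant against virgin (median 0.23), and in 5 of 8 for pregnant against pseudopregnant (median 0.03, with 1 lower at an unadjusted p under 0.05). Il33, an alarm cytokine, averaged 16.2 ± 6.59 CPM in the pregnant and 10.1 ± 3.31 CPM in the virgin libraries (log2 fold change 0.67, SE 0.29, unadjusted p = 0.032, adjusted p = 0.89). Il4ra, the receptor chain shared by interleukins 4 and 13, averaged 81.1 ± 19.9 CPM in the pregnant and 64.0 ± 13.9 CPM in the virgin libraries (0.34, SE 0.17). Other epithelial lists are given beside the members for pregnant against virgin. Of all tested genes, 51.5% were below 0 and 3.68% had an unadjusted p under 0.05. Genes of a cell type can vary together across libraries, so the signs within a list are not separate observations. Above 0 were 22 of 24 absorptive enterocyte genes (median 0.44, 6 at an unadjusted p under 0.05). Below 0 were 23 of 23 enteroendocrine genes (median -0.35, 3 at an unadjusted p under 0.05) and 29 of 30 proliferation genes (median -0.19, none). Below 0 were also 15 of 17 Paneth genes (median -0.11), 11 of 14 stem cell genes (median -0.08), 10 of 16 tuft cell genes (median -0.15), 4 of 8 leukocyte genes (median 0.07) and 1 of 4 stromal genes (median 0.10), none at an unadjusted p under 0.05. With a score of absorptive minus proliferation genes as a covariate, Agr2 was -0.32 (SE 0.21) and Spink4 0.07 (SE 0.38), whereas Zg16 was -0.86 (SE 0.35, unadjusted p = 0.026, adjusted p = 0.999). The part of these cell types in the members' values was otherwise not tested.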

How the data were processed

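The deposited values are raw read counts per Ensembl gene, with no normalization by the authors, 1 table for each of 18 libraries. Per the labels' protocols, libraries were made from poly(A) RNA with a directional kit. The submitters' processing notes list HISAT2 2.0.4, FastQC 0.11.5, Subread 2.0.0, featureCounts, the build GRCm38 and DESeq2 1.24.0. The sources used here give neither the annotation release nor the strand setting, so reads of overlapping antisense genes may not be told apart. Symbols, coordinates and exon lengths came from GENCODE M21, which named 47310 of 47729 genes, and genes without a symbol held at most 0.029% of the counts of a library. Depth was 24946836 to 37285510 counts.

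Groups follow the mating status in the labels. The test was edgeR 4.0.16 (quasi-likelihood, TMM scaling, filterByExpr, two-sided, R 4.3.3) over all 18 libraries and 14675 genes, with Benjamini-Hochberg adjustment over all of them and a threshold of 0.05. It was tested on simulated data. DESeq2 1.42.0, DESeq2 size factors, other low-count filters, fits on the groups compared alone, a replicate block, a length slope, an absorptive minus proliferation score and leaving out each library were alternatives. Log2 CPM for correlations used a prior count of 2, and scores are means of log2 CPM deviations over the tested genes of a list.

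The members and the gene lists were chosen with earlier results of these data known. All 10 members are named, and of every other list at most the 4 tested genes of smallest unadjusted p for pregnant against virgin, with Spdef and Atoh1 always, paralogs at a mean of at least 1 CPM, the 10 genes most correlated with the member score, and Epcam and Ptprc as checks of the sort. Genes at or near 0 counts, antisense partners and the other genes of the type 2 list were named after their values were seen. Tuft, leukocyte, stroma and stem cell lists were also computed.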

Additional observations from a re-analysis of the deposited data

Results flagged for a closer look

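In 7 of the 30 sets of 6 libraries (10 genes in 3 groups), the highest or lowest library stood farther from its nearest neighbour than Dixon's 95% critical value of 0.625 of the range allows. For independent, normally distributed sets chance alone gives about 1 in 20. These sets share the same 18 libraries, and the flags of Retnlb rest on at most 19 counts in a virgin and 95 in a pseudopregnant library. The 7 of 30 therefore cannot be read against that rate. Pregnant replicate 1 stood high for Tff3 (1605 CPM, the next pregnant library at 973 CPM) and for Spink4 (943 CPM, the next at 429 CPM). Pseudopregnant replicate 6 stood low for Fcgbp (2054 CPM, the next at 3328 CPM). Pseudopregnant replicate 4 stood high for Retnlb (2.75 CPM, the next at 0.40 CPM). Among virgin libraries, replicate 4 stood high for Fcgbp (5682 CPM, the next at 2936 CPM) and for Bcas1 (48.1 CPM, the next at 26.1 CPM), and replicate 6 for Retnlb (0.55 CPM, the next at 0.20 CPM). The cause of these values was not tested.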

How the results depend on the processing

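Of 540 fold changes of the 9 tested members under the alternatives, 515 kept their direction and 25 reversed. None reached an adjusted p of 0.05, the lowest being 0.177. For pregnant against virgin, Spink4 became 0.070 with the absorptive minus proliferation score and 0.023 with the length slope. Leaving out a library gave Spink4 -0.70 to 0.036, Muc2 -0.32 to 0.15 and Fcgbp -0.24 to 0.22. For pseudopregnant against virgin, the length slope gave Tff3 0.0051, Agr2 0.11 and Spink4 0.14, and leaving out a library gave Clca1 -0.21 to 0.16. For pregnant against pseudopregnant, the length slope gave Tff3 -0.13, Spink4 -0.12 and Klk1 -0.098, and leaving out a library gave Tff3 -0.20 to 0.41, Spink4 -0.056 to 0.55 and Klk1 -0.070 to 0.19. The cause of these reversals was not tested. For pregnant against virgin, edgeR called 0 of 14675 genes at an adjusted p under 0.05 (540 before adjustment). DESeq2, without the filter on low counts, made 2 calls among 27451 genes (786 before adjustment). No library left out changed the count of 0 called members in any of the 3 comparisons. The count of members at an unadjusted p under 0.05 moved from 1 to 3 for pregnant against virgin without virgin replicate 3 (Agr2, Klk1 and Bcas1, with 1953 of all genes in place of 540) or virgin replicate 5 (Zg16, Agr2 and Klk1, with 462 of all genes) and to 0 without virgin replicate 2, virgin replicate 4 or pregnant replicate 4 (315, 457 and 223 of all genes). For pseudopregnant against virgin it moved from 0 to 3 without virgin replicate 3 (Agr2, Spink4 and Klk1, with 2585 of all genes in place of 1375) and to 2 without pseudopregnant replicate 1 (Tff3 and Klk1, with 3390 of all genes). At these library totals, depth limits only Retnlb among the members, whose 0 to 95 counts allow no test.

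Same-numbered libraries do not deviate together throughout: for pregnant and virgin libraries the correlation of deviations was over 0.1 in 3 of 6 pairs, and 1 of 6 libraries matched best with its own number. For pseudopregnant and virgin libraries these were 4 and 2 of 6, and for pregnant and pseudopregnant libraries 3 and 3 of 6. Replicates 1, 3 and 5 were over 0.1 in all 3 comparisons and replicates 2 and 6 in none. Replicate 3 had the highest absorptive minus proliferation score of each group, at 1.47 in pregnant, 1.05 in pseudopregnant and 1.23 in virgin libraries. The labels give no batch, so the main fit does not take the numbers as pairs. Whether some same-numbered libraries share a source of variation was not tested. The fit with the replicate number as a block called 1 gene for pregnant against virgin (979 unadjusted) in place of 0 (540 unadjusted). It called 0 for pseudopregnant against virgin (1988 unadjusted in place of 1375) and 0 for pregnant against pseudopregnant (618 unadjusted in place of 345). This fit called 0 members, and Agr2 for pregnant against virgin was -0.51 (adjusted p = 0.70).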
